A study of Mus musculus with 4 samples.

Results

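This account covers 32 genes of mitosis and the mitotic spindle in LLC cells (Lewis lung carcinoma, a line from a mouse lung tumour) sorted from primary tumours. The genes were listed by name, and all 32 were found among the 35905 genes of the deposited tables. All 32 also passed the low-count filter, as did 13718 genes in all. The design has 2 groups of 2 libraries. WT hosts were Mrp8Cre-, Padi4fl/fl mice and PAD4-DN hosts were Mrp8Cre+, Padi4fl/fl mice, so every host carried floxed alleles of Padi4, which encodes peptidylarginine deiminase 4. Mrp8Cre is a Cre driver active in neutrophils, so the deletion lies in host cells and not in the cancer cells that were sequenced. Hosts were of the C57BL/6 strain, tumours grew subcutaneously in the flank for 4 weeks, and the age and sex of the animals are not given in the labels. The sorted cells were TdTomato-positive and CD45-negative, and the labels do not say whether the replicates are separate tumours. The p-values therefore measure only the spread between these libraries, which may be technical.

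Cells enter mitosis when B-type cyclins activate the kinase Cdk1. Polo-like and Aurora kinases then build the spindle, and a checkpoint at the kinetochores holds the anaphase-promoting complex back until every chromosome is attached. Most genes of this machinery are transcribed in G2 and mitosis under shared control by the MuvB complex and Foxm1 and are low in resting cells, so in bulk RNA their level follows the share of cells in those phases. In bulk samples fewer cells in a phase and less RNA per cell cannot be told apart.

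The libraries held 20036322 to 25327974 estimated counts, and the members held 178 counts (Ttk in WT replicate 1) to 9427 counts (Top2a in WT replicate 2). The keratin genes Krt8 and Krt18 had 3638 to 4782 counts in every library, while the epithelial genes Epcam and Cdh1 had at most 7. Ptprc, the gene of the sorting antigen CD45, had 17 to 111 counts. The collagen gene Col3a1 had 156588 to 238583 counts. Col1a1 set the libraries apart across genotypes, with 363 counts in WT replicate 1 and 402 in PAD4-DN replicate 2, against 13380 in WT replicate 2 and 13370 in PAD4-DN replicate 1.

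No mitotic gene passed the test between genotypes. The clearest difference was between libraries: WT replicate 1 was the lowest of the 4 libraries for 26 of the 32 members, and it was the highest for 0. Over all genes tested WT replicate 1 was the lowest library for 23.7% and the highest for 22.0%. WT replicate 2 was the highest for 14 members, beside 22.3% of all genes. CPM values (counts scaled to a common library size after TMM normalization) summed over the members to 1621 and 2137 for WT replicates 1 and 2, and to 2041 and 2052 for PAD4-DN replicates 1 and 2. The level of each library, taken as the median over members of log2 CPM minus the mean of the 4 libraries, was −0.24 and 0.14 in WT and 0.12 and 0.06 in PAD4-DN. Both PAD4-DN libraries thus lay between the WT libraries. The same level over all genes tested lay between −0.01 and 0.01 in every library.

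**Figure D1:**
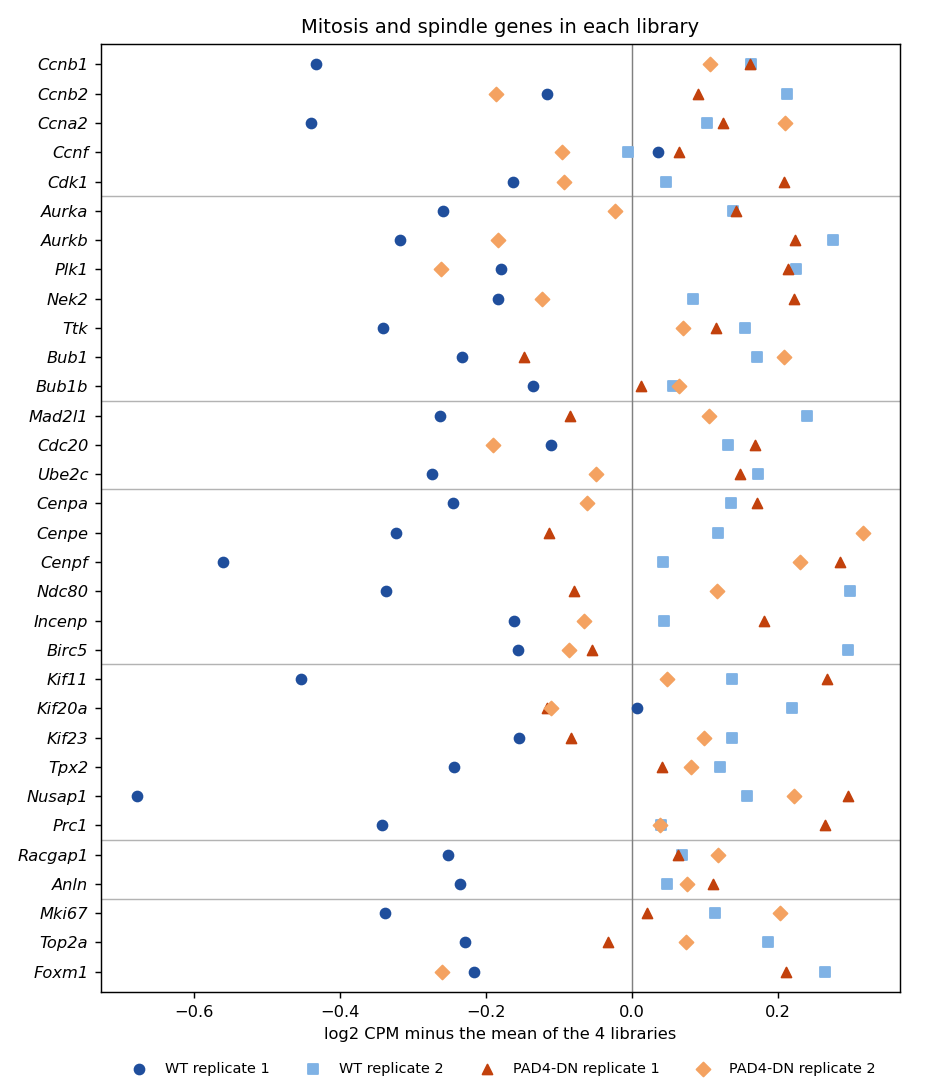
Each row is 1 gene, grouped by role, and each point is 1 library, with log2 CPM minus the mean of the 4 libraries on the x axis. WT replicate 1 is the leftmost point for 26 of 32 genes, while the other 3 libraries change order from gene to gene.

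The gap between the WT libraries was larger than counting error for nearly every member. The CPM ratio of WT replicate 2 to WT replicate 1 was above 1 for 31 of 32 members, beside 52.4% of all genes, with a median of 1.32. For all 31 its exact 95% binomial interval, which covers counting error only, lay above 1. Over all genes tested that interval lay above 1 for 23.9% and below 1 for 21.2%. The ratio ran up to 1.78 (1.58 to 2.02) for Nusap1. It was 0.972 (0.847 to 1.12) for Ccnf, the exception. These intervals compare 2 libraries and not 2 conditions. The ratio of PAD4-DN replicate 1 to WT replicate 2 had a median of 0.988 over the members, with 5 intervals above 1 and 10 below, beside 23.4% and 26.4% of all genes.

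By genotype, 0 of 32 members had an adjusted p under 0.05 in edgeR's quasi-likelihood test (Benjamini-Hochberg over all genes), against a background of 0% (0 of 13718). At an unadjusted p under 0.05 there were 0 of 32 members, beside 2.65% of all genes (1.23% higher and 1.42% lower in PAD4-DN). The smallest member p was 0.0645 (edgeR), and the smallest adjusted p was 0.988. DESeq2 on the same genes called 0 members and 0.0802% of all genes, and it gave 1 member an unadjusted p under 0.05, beside 2.65% of all genes. The median log2 fold change of the members, PAD4-DN minus WT, was 0.10, with 25 positive and 7 negative. Over all genes tested the median was 0.01 and 51.5% were positive. In CPM, both PAD4-DN libraries lay above both WT libraries for 4 members (Ccna2, Cenpf, Nusap1 and Anln), beside 15.4% of all genes. They lay below them for 1 member (Kif20a), beside 17.4%. With 2 libraries against 2, an exact permutation test cannot give a two-sided p below 0.333.

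The positive median rested on WT replicate 1. Without that library the median was −0.06, with 11 members positive and 21 negative. Without WT replicate 2 it was 0.30, with 30 members positive and 5 at an unadjusted p under 0.05, beside 1.82% of all genes in that fit, and 0 members passed after adjustment. It was 0.10 without PAD4-DN replicate 1 and 0.17 without PAD4-DN replicate 2.

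**Figure D2:**
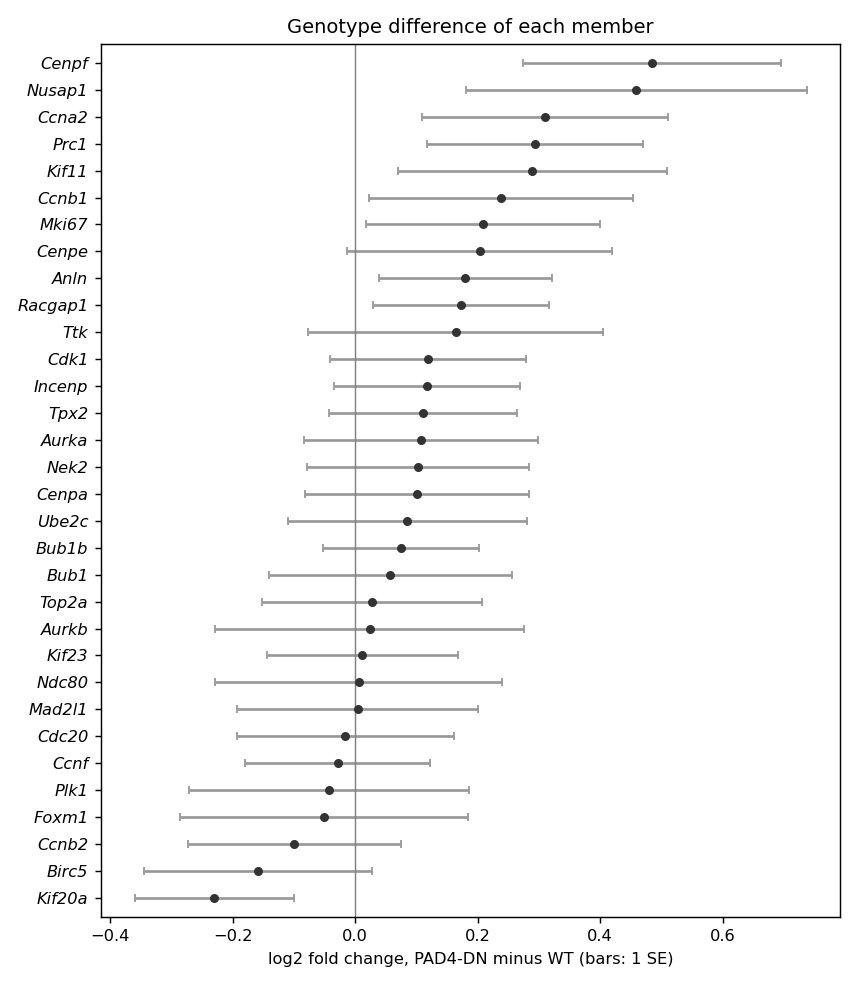
Points are edgeR log2 fold changes (PAD4-DN minus WT) of the 32 members, sorted, with bars of 1 standard error and 2 libraries in each group. They run from −0.23 for Kif20a to 0.49 for Cenpf, and none passed the test.

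Among the cyclins and their kinase, Ccna2, the A-type cyclin of S phase and G2, was at 39.7 and 57.9 CPM in WT, against 58.8 and 62.3 CPM in PAD4-DN. WT replicate 1 stood low and the other 3 libraries were close together, so the groups did not overlap although WT replicate 2 was within 1 CPM of PAD4-DN replicate 1. Its log2 fold change was 0.31 (SE 0.20, edgeR unadjusted p = 0.177), 0.07 without WT replicate 1 and 0.61 without WT replicate 2. Cdk1, the kinase that drives entry into mitosis, was at 45.1 and 52.1 CPM in WT, against 58.3 and 47.3 CPM in PAD4-DN, and the groups overlapped. Ccnb1, the B-type cyclin that activates it, was at 25.3 and 38.2 CPM against 38.2 and 36.7 CPM. Ccnb2, the other B-type cyclin of the list, was at 44.3 and 55.6 CPM against 51.1 and 42.2 CPM. These genes share the low WT replicate 1, except that PAD4-DN replicate 2 was lower still for Ccnb2. Ccnf, an F-box protein of the cyclin family, was nearly flat, at 17.5 and 17.1 CPM against 17.9 and 16.0 CPM. On the TPM scale, which divides by effective length, both PAD4-DN values of Ccnf were above both WT values. The values were 10.2 and 9.44 TPM in WT and 13.2 and 11.1 TPM in PAD4-DN. The 4133-base coding transcript of Ccnf held 68.7% and 74.5% of its counts in WT, against 59.9% and 62.6% in PAD4-DN. A 1721-base transcript annotated with a retained intron held 23.7% and 17.8% against 28.0% and 28.85%. TPM weighs counts on shorter transcripts more, so the higher TPM of Ccnf is not read as more coding transcript. Cdk1, Ttk, Prc1 and Racgap1 also overlapped between the groups in CPM but lay above WT in TPM. Anln and Kif20a, which did not overlap in CPM, overlapped in TPM. The share of all genes was not computed on this scale, so these positions are not read as a difference between genotypes. They also depend on the estimated split between shorter and longer transcripts.

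Of the 7 mitotic kinases, 6 were lowest in WT replicate 1. Bub1, a checkpoint kinase of the kinetochore and the most abundant of these by mean TPM, was at 45.5 and 60.2 CPM in WT, against 48.3 and 61.8 CPM in PAD4-DN. Each genotype held 1 low and 1 high library, and the log2 fold change was 0.06 (SE 0.20). Its relative Bub1b, which encodes the checkpoint protein BubR1, spanned only 52.9 to 60.8 CPM. Ttk, the kinase that starts checkpoint signalling, was the least abundant member by TPM, at 7.82 and 11.0 CPM in WT, against 10.7 and 10.4 CPM in PAD4-DN. The Aurora kinases Aurka (centrosomes) and Aurkb (inner centromere and midzone) were at 14.6 and 19.2 against 19.3 and 17.2 CPM, and at 17.0 and 25.6 against 24.7 and 18.6 CPM. Plk1, which acts in entry, spindle assembly and cytokinesis, was at 18.7 and 24.8 CPM against 24.6 and 17.7 CPM, with PAD4-DN replicate 2 the lowest. Nek2, a centrosome kinase, ran in the same order as Cdk1 over the libraries, at 22.5 and 27.1 against 29.8 and 23.5 CPM.

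Mad2l1, the checkpoint protein that holds Cdc20 inactive, was at 48.6 and 68.9 CPM in WT, against 55.038 and 62.8 CPM in PAD4-DN. Both PAD4-DN libraries lay between the WT libraries, and the log2 fold change was 0.00 (SE 0.20). Cdc20, an activator of the anaphase-promoting complex, was at 29.6 and 35.1 CPM against 36.0 and 28.0 CPM. Ube2c, its ubiquitin-conjugating enzyme, was at 18.7 and 25.5 CPM against 25.03 and 21.8 CPM.

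All 6 kinetochore and centromere members were lowest in WT replicate 1. Cenpf, a large kinetochore protein that accumulates in G2, had the largest log2 fold change of the members, 0.49 (SE 0.21, edgeR unadjusted p = 0.0645, adjusted p = 0.988). Leaving out WT replicate 1 gave 0.22, and leaving out WT replicate 2 gave 0.82. Cenpf was at 56.1 and 85.2 CPM in WT, against 101 and 97.0 CPM in PAD4-DN, so the groups did not overlap. The ratio between the WT libraries, 1.52 (1.42 to 1.63), was larger than the ratio of 1.18 (1.11 to 1.26) from WT replicate 2 to PAD4-DN replicate 1. Cenpe, a kinetochore motor, was at 48.8 and 66.2 CPM in WT, against 56.4 and 76.0 CPM in PAD4-DN, and the groups overlapped. Birc5 (survivin), a subunit of the chromosomal passenger complex, was at 20.7 and 28.2 CPM in WT, against 22.2 and 21.7 CPM in PAD4-DN, with WT replicate 2 alone high. The microtubule-binding Ndc80 was at 21.9 and 34.0 against 26.2 and 29.971 CPM, the centromeric histone gene Cenpa at 23.0 and 29.9 against 30.7 and 26.1 CPM, and the passenger scaffold Incenp at 39.3 and 45.3 against 49.8 and 42.0 CPM.

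Among the spindle motors and microtubule binders, 5 of 6 were lowest in WT replicate 1. Nusap1, which bundles spindle microtubules, was at 17.2 CPM in WT replicate 1 and at 30.7 CPM in WT replicate 2, against 33.8 and 32.1 CPM in PAD4-DN. Its range over the libraries was 0.97 on the log2 scale, the widest of the members, and its log2 fold change was 0.46 (SE 0.28, edgeR unadjusted p = 0.155). Without WT replicate 1 it was 0.11, and without WT replicate 2 it was 0.94. Kif11, the plus-end motor that separates the spindle poles, was at 45.0 and 67.7 CPM in WT, against 74.1 and 63.7 CPM in PAD4-DN. Prc1, which crosslinks microtubules of the central spindle, was at 41.1 and 53.6 CPM against 62.6 and 53.5 CPM. Kif11 and Prc1 thus overlapped between the groups in CPM, with log2 fold changes of 0.29 (SE 0.22) and 0.29 (SE 0.18). Leaving out WT replicate 1 gave 0.03 for Kif11 and 0.12 for Prc1. Leaving out WT replicate 2 gave 0.61 for Kif11 and 0.50 for Prc1. Kif20a, a motor of the central spindle, was the only member with both PAD4-DN libraries below both WT libraries in CPM. It was at 56.3 and 65.2 CPM in WT, against 51.7 and 51.9 CPM in PAD4-DN. The log2 fold change was −0.23 (SE 0.13, edgeR unadjusted p = 0.133). Kif23, the motor subunit of the centralspindlin complex, was at 42.1 and 51.6 CPM against 44.3 and 50.2 CPM. The spindle assembly factor Tpx2 was at 60.8 and 78.2 CPM against 74.0 and 76.1 CPM.

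Racgap1, the other centralspindlin subunit, was at 81.8 and 102 CPM in WT, against 102 and 106 CPM in PAD4-DN. The contractile ring protein Anln was at 121 and 148 CPM against 154 and 151 CPM. In both, WT replicate 1 stood below 3 libraries that were close together. Mki67, the proliferation antigen that coats mitotic chromosomes, was at 189 and 259 CPM in WT, against 243 and 276 CPM in PAD4-DN. Top2a, the topoisomerase that disentangles sister chromatids, was at 280.2 and 374 CPM in WT, against 321 and 346 CPM in PAD4-DN. Foxm1, a transcription factor of G2 and mitotic genes, was at 28.2 and 39.3 CPM against 37.9 and 27.3 CPM, low in 1 library of each genotype.

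Per length, Top2a was the most abundant member, at 95.5 and 134 TPM in WT and at 121 and 125 TPM in PAD4-DN. Cdk1 followed at a mean of 96.7 TPM over the 4 libraries and Racgap1 at 60.9 TPM. A 475-base Cdk1 transcript annotated with a retained intron held 10.05% to 11.36% of its counts. Another, coding and of 695 bases, held 8.41% to 14.79%. Such short transcripts weigh more in TPM than in counts, so the rank of Cdk1 rests partly on them. The lowest were Ttk at 5.81 TPM, Ccnf at 11.0 TPM and Cenpe at 11.3 TPM. On this scale WT replicate 1 was the lowest library for 28 of 32 members. With DESeq2 size factors it was the lowest for 26.

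PAD4-DN replicate 2 was the lowest library for 5 members, beside 28.8% of all genes: Ccnb2, Ccnf, Plk1, Cdc20 and Foxm1, a set named after its values were seen. Its CPM ratio to PAD4-DN replicate 1 was 0.719 (0.631 to 0.820) for Plk1, 0.721 (0.649 to 0.801) for Foxm1 and 0.780 (0.701 to 0.867) for Cdc20. It ran the other way for Cenpe at 1.35 (1.25 to 1.45), Bub1 at 1.28 (1.18 to 1.39) and Mki67 at 1.14 (1.09 to 1.18). Over the 32 members 12 of these counting intervals lay below 1 and 7 above. Over all genes tested 27.8% lay below 1 and 27.8% above.

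Within genes, the estimated split between transcripts also varied between libraries, as seen in genes picked after their values were known. A shorter coding transcript of Ccnb1 held 34.4% and 25.01% of the gene's counts in WT, against 19.7% and 10.8% in PAD4-DN. A transcript of Cenpa annotated for nonsense-mediated decay held 51.5% and 47.5% against 45.8% and 39.9%. A second coding transcript of Aurkb held 13.05% and 18.4% against 0% and 47.2%, and its groups overlapped. A count was made of the 53 transcripts that held at least 10% of their gene's counts on average, in 31 members with several transcripts. The share was below WT in both PAD4-DN libraries for 7, above for 9 and overlapped for 37. No such count was made over all transcripts, so these numbers are not read as a difference between genotypes. Ccnb2 had all its counts in 1 transcript in every library.

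The other genes of the cell cycle were read from fixed lists, and none of their genes passed edgeR's test. The low level of WT replicate 1 extended to the other mitotic lists, at −0.29 for 10 other mitotic kinesins, −0.21 for 34 kinetochore and centromere genes, −0.20 for 15 condensin, cohesion and separase genes and −0.24 for 27 spindle, centrosome and cytokinesis genes. It was weaker, at −0.11, for the 16 tested genes of entry into mitosis, of which WT replicate 1 was the lowest library for 8. Over the 100 tested genes of these 5 lists it was the lowest library for 63. It was not low for the 17 anaphase-promoting complex genes (−0.01) or for the 37 S phase genes (−0.02). WT replicate 1 was the lowest library for 9 of the 37 S phase genes, close to the share of all genes. The lowest level of the S phase list was in PAD4-DN replicate 1, at −0.15, against 0.17 in WT replicate 2 and 0.03 in PAD4-DN replicate 2.

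**Figure D3:**
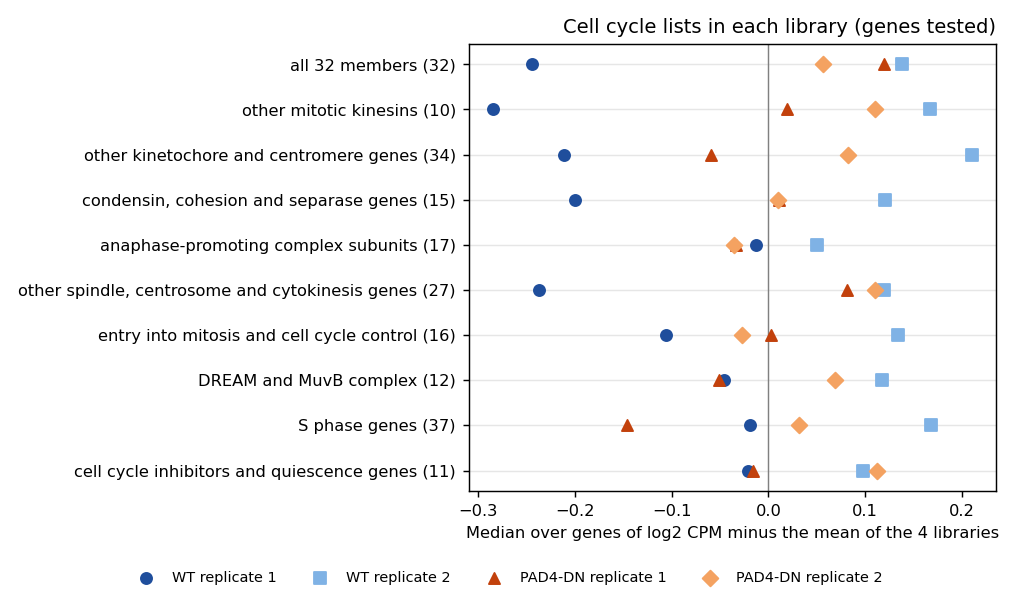
Each row is a list of cell cycle genes with the number tested, and each point is the level of 1 library, the median over genes of log2 CPM minus the mean of the 4 libraries. WT replicate 1 lies at −0.20 or below for the members and for 4 of 5 other mitotic lists, at −0.11 for entry into mitosis, and near 0 for the anaphase-promoting complex and S phase lists.

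The member level minus the S phase level was −0.23 and −0.03 in WT and 0.27 and 0.03 in PAD4-DN. Both PAD4-DN libraries were above both WT libraries on this difference, with PAD4-DN replicate 1 the highest. The separation was narrow, with WT replicate 2 at −0.03 and PAD4-DN replicate 2 at 0.03. The libraries within each genotype lay farther apart than these. The difference was not tested, and an exact test of these libraries cannot give a p below 0.333. For the S phase list itself the median log2 fold change was −0.09 (11 positive, 26 negative). Both PAD4-DN libraries were below both WT libraries for 12 of its 37 genes, beside 17.4% of all genes, and above them for 0, beside 15.4%. It held 3 genes at an unadjusted p under 0.05, all lower in PAD4-DN, beside 1.42% of all genes. Cdt1, which licenses replication origins, was at 36.2 and 38.3 CPM in WT, against 27.9 and 28.9 CPM in PAD4-DN. Gins2, a subunit of the replicative helicase, was at 29.7 and 32.5 CPM against 23.9 and 23.3 CPM.

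Of the other lists, the 16 tested genes for entry into mitosis had a median log2 fold change of −0.08. They included Gtse1, a G2 and S phase gene that binds p53 and microtubules, at 25.1 and 36.3 CPM in WT, against 20.01 and 16.3 CPM in PAD4-DN. The log2 fold change was −0.76 (SE 0.22, edgeR unadjusted p = 0.0167). The mitotic kinase Pbk was at 14.1 and 18.2 CPM against 20.2 and 19.2 CPM. Among DREAM and MuvB genes, the repressor E2f4 was at 69.6 and 70.6 CPM in WT, against 57.3 and 50.4 CPM in PAD4-DN (edgeR unadjusted p = 0.02504), and the MuvB subunit Lin52 at 9.41 and 9.80 CPM against 11.3 and 12.8 CPM. Among inhibitors and quiescence genes Trp53, which encodes p53, was at 159 and 162 CPM in WT, against 120 and 121 CPM in PAD4-DN (edgeR unadjusted p = 0.0121), and its target Ccng1 at 328 and 447 CPM against 225 and 315 CPM. The groups did not overlap for these 6 genes, and each had an adjusted p of 0.988 by edgeR. They were named for the smallest p of their lists, so the lack of overlap follows largely from that choice. Both PAD4-DN libraries lay above both WT libraries for 2 of 16 entry, 4 of 12 DREAM and MuvB and 2 of 11 inhibitor genes. They lay below for 1, 2 and 2. Over all genes tested the shares were 15.4% above and 17.4% below.

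None of the genes named from the remaining lists passed the test. In the anaphase-promoting complex Anapc11, the RING subunit, was at 37.5 and 35.5 CPM in WT, against 29.1 and 26.5 CPM in PAD4-DN (edgeR unadjusted p = 0.0251), and the scaffold subunit Cdc16 was at 73.1 and 77.1 against 63.2 and 67.6 CPM. The condensin ATPase Smc4 was at 105 and 128 against 131 and 151 CPM, and securin, Pttg1, at 9.36 and 11.6 against 8.98 and 6.92 CPM. The motor Kif20b was at 22.9 and 26.2 against 28.2 and 32.1 CPM and the minus-end motor Kifc1 at 18.6 and 23.1 against 19.2 and 16.4 CPM. The centromere gene Cenpt was at 17.3 and 19.1 against 13.1 and 15.3 CPM. The centriole gene Sass6 was at 15.4 and 17.1 against 19.4 and 21.5 CPM and the spindle gene Ckap2l at 19.2 and 24.9 against 27.8 and 27.6 CPM. Anapc11, Cdc16, Pttg1, Kifc1 and Cenpt had negative fold changes, and Smc4, Kif20b, Sass6 and Ckap2l had positive ones. Of these genes, also named for the smallest p of their lists, the groups overlapped for Kifc1.

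Markers of other cell types were read beside the members. WT replicate 1 was the lowest library for 0 of 8 macrophage, 0 of 6 leukocyte, 0 of 6 tested neutrophil, 0 of 6 tested endothelial and 0 of 5 tested erythroid and platelet markers. It was the lowest for 1 of 2 tested T and NK cell, 1 of 3 tested pericyte, 5 of 10 fibroblast and 4 of 9 mitochondrially encoded genes. Summed fibroblast markers were 9244 and 11020 CPM in WT, against 14780 and 8747 CPM in PAD4-DN, with PAD4-DN replicate 2 the lowest. A sum is weighted to the most abundant genes, here collagens such as Col3a1. As the median over the 10 fibroblast markers, the level was −0.323 and 0.287 in WT, against 0.555 and −0.578 in PAD4-DN. WT replicate 1 and PAD4-DN replicate 2 were thus both negative. Summed macrophage markers were 42.0 and 42.8 CPM in WT, against 82.6 and 11.3 CPM in PAD4-DN. Summed neutrophil markers were lowest in WT replicate 2 at 3.61 CPM and highest in PAD4-DN replicate 1 at 19.0 CPM. The neutrophil gene Ly6g and the lymphocyte genes Nkg7 and Gzma had 0 counts in 3 libraries each. The part of these cells in the members' values was not tested. Effective length fell short of transcript length by a median of 223.9 bases for WT replicate 1 and by 236.8 to 239.4 bases for the others, among transcripts of 5000 bases or more. WT replicate 1 thus had the smallest of these gaps. For these single-end reads the source of the gaps was not examined, and they are not read as a measured property of the libraries. The part of this gap in the low member level of WT replicate 1 was not tested.

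Sequence at the members' start sites was read because genes of this kind are known to share a promoter element, the cell cycle genes homology region (CHR), bound by MuvB, next to CCAAT boxes bound by NF-Y. RefSeq promoter windows on GRCm38.p6, of 250 bases before to 50 bases after the start, were given for 26 of 32 members. A stretch of bases after the start was found in the gene's transcripts for 23 of their 27 windows. It was not found for Aurka, Kif11, Kif23 and Mad2l1, so the annotated starts of these genes are less certain. Windows for Aurkb, Ccna2, Foxm1, Incenp, Kif20a and Tpx2 were not used here. The letters TTTGAA were searched for the CHR core and CCAAT for the CCAAT box, each on both strands, and no match of one shared bases with a match of the other. TTTGAA was in the windows of 19 of 26 members (73.1%), against 20.2% of 27025 genes. CCAAT was in 21 of 26 (80.8%), against 41.1%. Both were in 17 of 26 (65.4%), against 9.0%. Among other genes TTTGAA was in 23.3% of 30 S phase windows and 51.8% of 83 windows of the 5 other mitotic lists. In 18 of the 19 members the match nearest the start lay within 50 bases of it. The position of matches over all gene windows was not computed.

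The 30-base stretches around that match are shown for 9 members described above, and for Plk1, Cdc20 and Ccnb2, which were low in PAD4-DN replicate 2. They are read on the strand that carries TTTGAA, and capitals mark it. Cenpf lies at chr1:189688067-189688096 on the minus strand, Prc1 at chr7:80294434-80294463 on the plus strand, Kif11 at chr19:37376351-37376380 on the minus strand and Top2a at chr11:99024195-99024224 on the plus strand. Cdk1 lies at chr10:69352910-69352939, Racgap1 at chr15:99651634-99651663, Kif23 at chr9:61946780-61946809, Ttk at chr9:83834684-83834713 and Ccnf at chr17:24251406-24251435, all on the minus strand. Plk1 lies at chr7:122159453-122159482 on the plus strand, Cdc20 at chr4:118437344-118437373 and Ccnb2 at chr9:70421533-70421562 on the minus strand.
Cenpf: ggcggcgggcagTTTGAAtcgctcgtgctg
Prc1: cctctggctcggTTTGAAttccgcggggtc
Kif11: ccgcgcctcaatTTTGAAaaatggagacga
Top2a: tccctagtttcaTTTGAAcctttatctagc
Cdk1: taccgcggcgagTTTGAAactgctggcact
Racgap1: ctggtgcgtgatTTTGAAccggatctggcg
Kif23: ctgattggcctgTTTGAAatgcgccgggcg
Ttk: tccggaaacacgTTTGAAatttccccgctg
Ccnf: gctcccggcgcgTTTGAAaacggggcgggg
Plk1: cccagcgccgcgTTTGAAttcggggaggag
Cdc20: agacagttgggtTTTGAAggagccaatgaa
Ccnb2: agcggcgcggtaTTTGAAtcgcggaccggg

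Longer stretches, of 230 bases before to 20 bases after the start and read on the gene's strand, are shown for the most abundant member, Top2a (chr11:99024170-99024419, minus strand), for Cenpf with the largest fold change (chr1:189688067-189688316, minus strand) and for Nusap1 with the widest range (chr2:119618068-119618317, plus strand). Capitals mark both motifs and their reverse complements. Top2a holds 6 CCAAT matches and 2 TTTGAA matches in its window and Cenpf 2 and 1. Nusap1, Birc5 and Mad2l1 hold neither in their windows, though the window of Mad2l1 was not matched to its transcripts.
Top2a: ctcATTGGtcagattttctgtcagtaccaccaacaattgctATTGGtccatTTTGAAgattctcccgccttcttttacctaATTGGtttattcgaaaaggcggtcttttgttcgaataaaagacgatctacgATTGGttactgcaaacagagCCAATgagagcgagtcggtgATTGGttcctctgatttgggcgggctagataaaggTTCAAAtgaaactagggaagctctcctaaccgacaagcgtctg
Cenpf: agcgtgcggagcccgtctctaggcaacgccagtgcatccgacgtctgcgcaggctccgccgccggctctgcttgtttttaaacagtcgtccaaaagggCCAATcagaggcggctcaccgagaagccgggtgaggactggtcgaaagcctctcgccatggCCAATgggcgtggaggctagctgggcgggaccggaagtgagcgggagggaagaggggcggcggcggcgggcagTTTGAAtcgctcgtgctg
Nusap1: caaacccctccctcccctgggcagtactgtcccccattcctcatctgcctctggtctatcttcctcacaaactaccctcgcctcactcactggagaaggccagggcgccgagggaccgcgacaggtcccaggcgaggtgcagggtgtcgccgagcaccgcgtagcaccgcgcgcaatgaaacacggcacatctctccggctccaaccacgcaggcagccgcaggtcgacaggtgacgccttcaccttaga

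**Figure D4:**
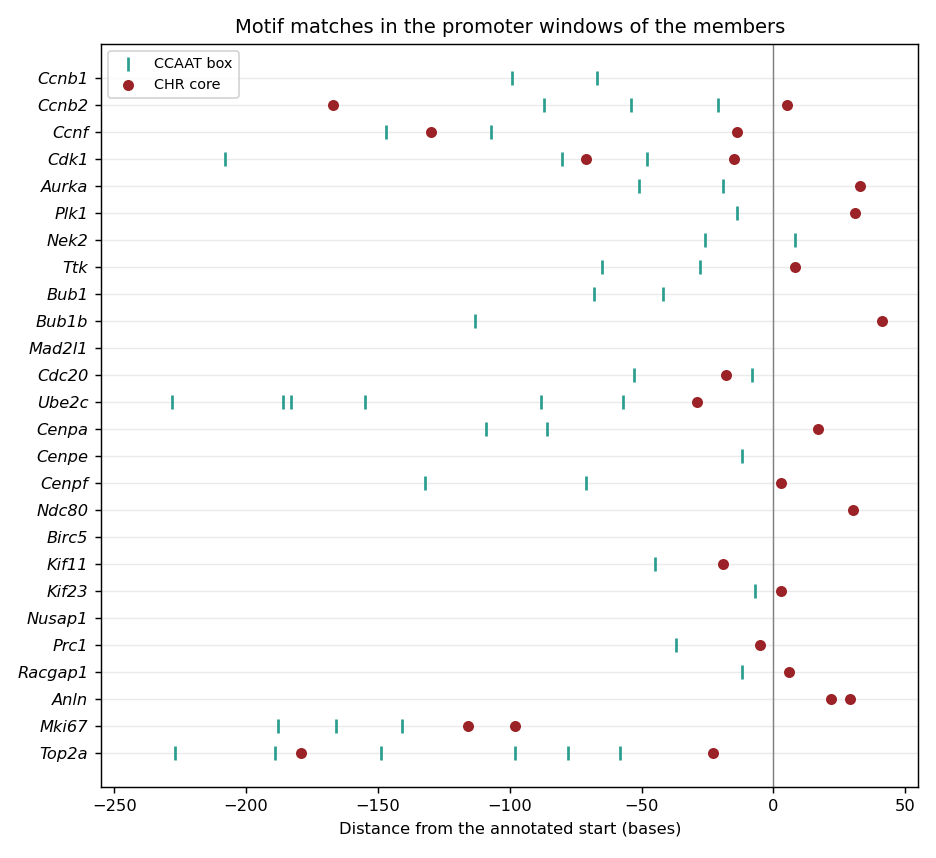
Each row is 1 of the 26 members with a promoter window; dots mark the CHR core and ticks the CCAAT box by distance from the annotated start in bases, counted to the leftmost base of a match on the gene's strand, with negative values before the start. The dot nearest the start lies within 50 bases of it for 18 of 19 genes, while other dots lie as far away as −179 (Top2a). The ticks lie mostly before the start, where most of each window lies.

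These matches describe letters in a window, not bound sites, and a window without them says nothing about the factors. Their relation to the RNA levels was not tested.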

How the data were processed

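Poly-A RNA, captured with oligo-dT beads, was sequenced from 2 WT and 2 PAD4-DN samples of sorted LLC cells, as single-end reads of 75 cycles per the labels' protocols. Per the submitters' processing notes the tool was kallisto and the build GRCm39, and its version and annotation were not given in the sources used. The deposited estimated counts are expected counts per transcript, not normalized. The deposited TPM values are scaled for effective length. Transcripts were matched by identifier to GENCODE M21 (116408 of 117486), which is on an earlier build, and counts and TPM were summed per gene, with counts rounded. Lin54, fixed in a list, was not analysed here.

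Genotypes were compared with edgeR 4.0.16 (TMM, filterByExpr, quasi-likelihood test, no replicate block) in R 4.3.3, with p adjusted over 13718 genes. The median SE of a log2 fold change was 0.20. Levels per library used a prior count of 2. Alternatives used DESeq2 1.42.0 and limma 3.58.1. Intervals cover counting error only, since PCR copies cannot be recognised here, and kallisto's split between similar transcripts is an estimate. Members given in every library by rule are the 6 with the smallest p, the most abundant of each role, the 3 highest and 3 lowest by TPM and the 4 with the widest range; other members are printed beside them. Of each other list the 2 genes with the smallest p are named, except 1 that is not reported here. Members and lists were chosen with earlier results of these data known.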

Additional observations from a re-analysis of the deposited data

How the results depend on the processing

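No member was called in any of the settings tried, and the count over all genes was 0 except for 11 with DESeq2 on the same genes, 10 with no low-count filter and 0 to 2 with 1 library left out. The median log2 fold change of the members was 0.10 and ran from −0.056 to 0.304 with 1 library left out, where a group keeps 1 library that is assumed to vary like the rest. In the other settings it lay between 0.07 and 0.14. With the replicate block 0 genes and 0 members were called and the median was 0.10. Same-numbered libraries deviated in opposite directions (correlation −0.34 across genes), so a crossed replicate block was added after the data were seen. It called 0 genes, with a smallest edgeR adjusted p of 0.0505 over all genes and 0.994 over the members. At an edgeR unadjusted p under 0.05 it had 1 member, beside 3% of all genes. With no low-count filter there were 2 such members, beside 3.36% of all genes. Library levels kept their order with DESeq2 size factors (−0.24, 0.13, 0.12 and 0.07 in WT 1 and 2 and PAD4-DN 1 and 2). On log2(TPM + 1) PAD4-DN replicate 1 (0.17) passed WT replicate 2 (0.13). Small fold changes turned sign. With effective length offsets they were −0.044 for Mad2l1, −0.035 for Bub1 and 0.24 for Ccnf. On log2(TPM + 1) Ccnf was at 0.28. With no low-count filter Mad2l1 was at −0.008 and Kif23 at −0.001. With 1 library left out they ran from −0.221 to 0.277 for Mad2l1, −0.161 to 0.251 for Top2a, −0.039 to 0.265 for Cdk1, −0.361 to 0.085 for Birc5 and −0.129 to 0.275 for Bub1. They ran from −0.122 to 0.165 for Kif23, −0.057 to 0.433 for Ttk, −0.111 to 0.052 for Ccnf and −0.025 to 0.441 for Cenpe. The other 7 named members kept their sign without each library but moved widely, from 0.221 to 0.818 for Cenpf, 0.107 to 0.937 for Nusap1, 0.069 to 0.608 for Ccna2 and 0.029 to 0.615 for Kif11. They moved from 0.121 to 0.498 for Prc1, 0.027 to 0.342 for Racgap1 and −0.328 to −0.12 for Kif20a. Kallisto's transcript split and 2 libraries a group limit the precision, with a smallest exact p of 0.333.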
